A study of Mus musculus with 16 samples.

Results

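The mRNAs of chromatin modifier and remodeller genes were examined for N6-methyladenosine (m6A) peaks in mouse liver. Genes were included by symbol: those beginning with Kmt, Kdm, Setd, Kat, Hdac, Chd, Brd, Arid, Ehmt, Nsd, Tet, Ezh or Cbx followed by a digit, and those beginning with Smarc or Dnmt. Of the 7693 genes with an m6A peak in at least 1 mouse, 89 met this rule. The HFrD group held 4 mice, numbered 1, 2, 5 and 7, that ate a high-fructose diet for 2 weeks, with 70% of its energy from carbohydrate, 10% from fat and 20% from protein. The ND group held 4 mice, numbered 1, 3, 6 and 7, that ate a normal diet for the same time, whose composition is not given in the sources used here. All were male C57BL/6J mice, bought at 10 to 11 weeks of age, before the 2 weeks of diet. The livers were sequenced as RNA pulled down with an m6A antibody and as input RNA without pull-down. The authors called peaks for each mouse separately, so a mouse is the replicate (n = 4 per diet).

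Chromatin modifiers write, erase or read chemical marks on histone tails and on DNA, and remodellers use ATP to slide or evict nucleosomes. In the liver they help to keep metabolic genes open or closed as nutrients vary, and several of their cofactors, such as acetyl-CoA and S-adenosylmethionine, are themselves products of metabolism. Their own mRNAs tend to be long, with many exons. m6A is a methyl mark on the adenosines of mRNA, placed mostly within a short sequence context of which GGACT in the DNA letters is a familiar form.

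To show where such letters lie in the methylated exons of this gene set, 25 bases around a GGACT are given for 7 role groups, each by its strongest region that held both GGACT and a peak in all 8 mice. The role groups follow the gene symbols, and no histone deacetylase had such a region. Each sequence was read from the RefSeq genome of build GRCm38 (mm10), 5′ to 3′ on the strand of the mRNA, with GGACT in capitals. A match describes the letters in the exon and does not locate a methylated base. The start codon named for Chd4 is that of a 2-exon transcript model, not of the 39-exon model of this gene.
Kmt2b, a histone H3 lysine 4 methyltransferase, coding exon, minus strand, chr7:30586554-30586578: aggccgaggcGGACTtccccttatg
Kdm5a, a histone H3 lysine 4 demethylase, coding exon, plus strand, chr6:120431844-120431868: tgaaaggaaaGGACTcttcagagaa
Kat6b, a histone H3 acetyltransferase, last exon within the coding sequence, plus strand, chr14:21670511-21670535: ggtcctgcacGGACTttaacgatgc
Chd4, the helicase of the NuRD complex, region around the start codon, plus strand, chr6:125097035-125097059: tgggggagggGGACTgcgcgtcact
Smarcc2, a scaffold subunit of the SWI/SNF complex, coding exon, plus strand, chr10:128482790-128482814: catacctggaGGACTcggaggcttc
Arid4a, a DNA-binding partner of the retinoblastoma protein and of SIN3 complexes, coding exon, plus strand, chr12:71067281-71067305: aaaagccagaGGACTctgagagaga
Tet3, an enzyme that oxidises 5-methylcytosine in DNA, last exon within the coding sequence, minus strand, chr6:83368945-83368969: aagccagtggGGACTgttcactggt

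Peaks were widespread on these mRNAs. Of the 89 genes, 54 (60.7%) had a peak in all 8 mice, against 39.6% of all genes with a peak. Only 7 genes of the set were found in a single list. RefSeq lists 117 protein-coding mouse genes whose current symbols fit the rule. Of these, 28 had no peak under any symbol that fits the rule, and the files list 5 of the 28 under an older symbol outside it. Kmt5a was counted as having a peak through its older symbol Setd8, which fits the rule. The 9 chromodomain helicases with a peak all had one in every mouse. In contrast, 4 of the 11 histone deacetylase genes had a peak in any mouse and none of those 4 had one in all 8. All 8 chromobox genes, 16 of 18 lysine demethylases and 9 of 13 Smarc genes carried a peak in some mouse.

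The lists differed in length. They held 8627, 9736, 10093 and 8055 peaks in HFrD mice and 8959, 9799, 10397 and 11517 peaks in ND mice. The lowest score of any peak, which is -10 times log10 of its p-value, was 50. The false discovery rate deposited with each peak had a median per mouse of 90.3% ± 10.6 in HFrD mice and 91.4% ± 10.4 in ND mice (SD, n = 4 each), and 2 of the 8 lists, both of ND mice, held any peak at or under 5%. Reads were not analysed here, so the depth behind a missing peak is unknown, and a gene with few transcripts can lack a peak for that reason alone. Among 36 markers of liver cell types and of proliferation looked for, 22 had a peak; of 8 hepatocyte markers these were Apoa1, Hnf4a and Cebpa, and Alb had none, so peak lists do not serve to check the tissue. Marco, a scavenger receptor of Kupffer cells, had 3, 1, 3 and 2 peaks in HFrD mice and 0 in each ND mouse. It was the only 1 of the 5 Kupffer cell markers with a peak to separate the diets. Of the others, Vsig4 was found in 4 HFrD and 3 ND mice, and Clec4f in 3 HFrD and 4 ND mice. Cd5l was found in 1 HFrD and 3 ND mice, and Csf1r in 0 HFrD mice and 1 ND mouse. The proliferation markers with a peak were Mki67, found in 3 HFrD mice and 1 ND mouse, and Top2a, found in 1 HFrD mouse and 0 ND mice. The part of cell composition in the results below was not tested.

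The question was whether the high-fructose diet altered methylation of chromatin genes. The share of the 89 genes with a peak was 73.0%, 86.5%, 80.9% and 75.3% in HFrD mice, against 80.9%, 78.7%, 84.3% and 87.6% in ND mice. The ranges overlapped, and HFrD mice 1 and 7, which had the 2 shortest lists, were the lowest. The means were 78.9% ± 6.04 in HFrD mice and 82.9% ± 3.93 in ND mice (SD, n = 4 each), a difference of -3.93 percentage points, beside -5.72 points over all genes. With every list shortened to 8055 peaks by score the difference was -2.53 points. In this bulk tissue, fewer cells of a type and less RNA per cell cannot be told apart.

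A gene of the set that had a peak carried 3.46 ± 0.213 peaks in HFrD mice and 3.71 ± 0.250 peaks in ND mice (SD, n = 4 each). Over all genes these means were 1.84 in HFrD mice and 1.88 in ND mice. The difference for the set, -0.251 peaks, became 0.00656 once the lists were of equal length. Counted gene by gene, 17 of the 89 had a higher mean number of peaks in HFrD mice and 58 a lower one, beside 25.8% higher and 47.9% lower over all genes.

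**Figure D1:**
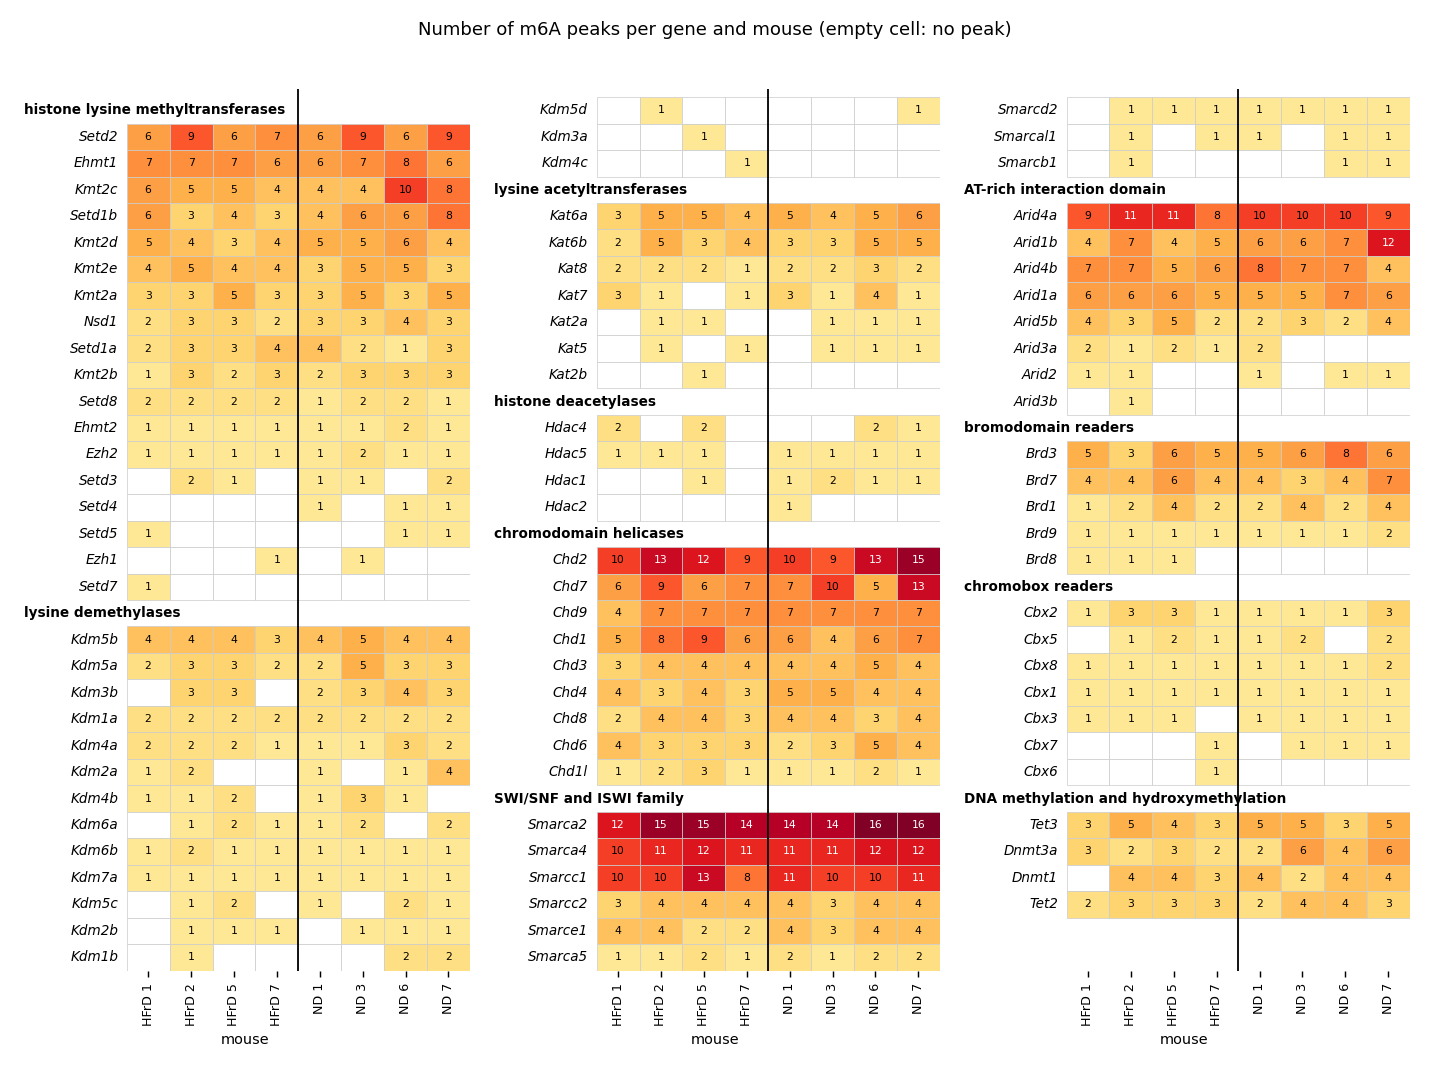
Number of m6A peaks on 87 of the 89 chromatin genes (rows, by role group) in each of 4 HFrD and 4 ND mice (columns). Darker cells hold more peaks and empty cells none; Smarca2, Chd2, Smarca4, Smarcc1 and Arid4a are the darkest rows, and the histone deacetylases have the most gaps for their number.

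The number of peaks per mRNA varied widely. Smarca2, which encodes the BRM ATPase of the SWI/SNF complex, led with 12, 15, 15 and 14 peaks in HFrD mice and 14, 14, 16 and 16 peaks in ND mice. Chd2, a chromodomain helicase, followed with 10, 13, 12 and 9 peaks in HFrD mice and 10, 9, 13 and 15 peaks in ND mice. Smarca4, which encodes BRG1, the alternative ATPase of the same complex, had 10 to 12 peaks in HFrD mice and 11 to 12 in ND mice. Smarcc1, a scaffold subunit of that complex, had 8 to 13 peaks in HFrD mice and 10 to 11 in ND mice, and Arid4a had 8 to 11 in HFrD mice and 9 to 10 in ND mice. All 5 ranges overlapped between the diets. Together these 5 genes held 22.1% of the set's peaks. Over all 8 mice together, the peaks of Chd2 fell on 17 exon numbers of 39 and those of Smarca2 on 16 of 33. Those of Smarca4 fell on 14 of 34 and those of Smarcc1 on 14 of 28. Peaks of a gene could be placed on different transcripts, as in Smarca4, and the exon numbers were pooled. At the other end, 30 genes averaged no more than 1 peak per mouse, among them Cbx1 and Kdm7a with exactly 1 peak in every mouse.

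The deposited intervals followed exons. Of 1852 peaks of the set that could be placed on a transcript, 86.2% coincided with a whole exon, against 71.2% of all placed peaks, so positions within an exon are not resolved and the segment below is that of the interval's midpoint. Overlapping peaks of the 8 mice were merged into regions, which gave 431 regions for the set out of 17526. Of these, 388 were placed on a transcript, and 75.8% of the placed regions lay in coding sequence, against 48.5% over all genes. Regions within 200 nucleotides of the start codon made up 14.2%, against 25.7% over all genes, and those around the stop codon 4.64%, against 12.8%. The 3′UTR held 3.61%, against 9.77% over all genes, and the last exon 10.1%, against 25.4%. The transcripts of the set were longer, with a median of 6367 nucleotides against 3857, and the exons under its regions shorter, with a median of 205 nucleotides against 244.5. These are descriptions of the set without a test, and the part of transcript length in them was not tested.

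**Figure D2:**
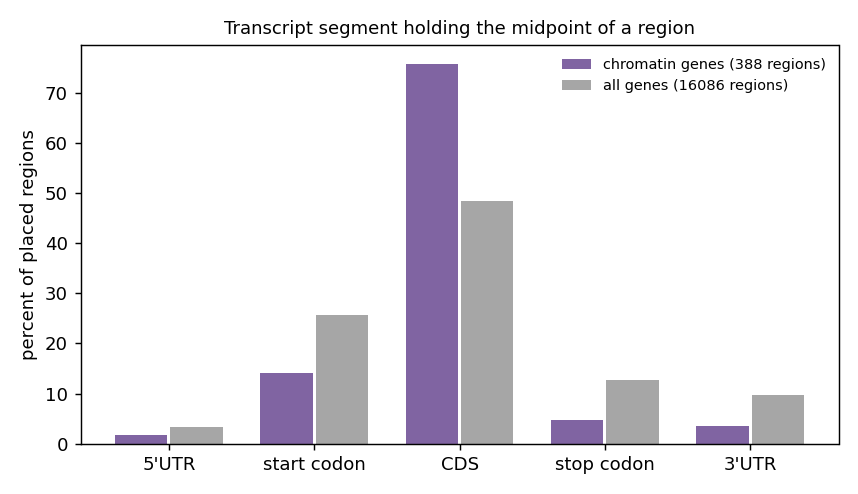
Percent of placed regions whose midpoint falls in each transcript segment, for the chromatin genes and for all genes. Coding sequence takes 75.8% of the regions of chromatin genes and 48.5% of all regions, and each of the other segments takes a smaller percent in chromatin genes.

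The role groups differed in this respect. Coding sequence held 41 of 47 placed regions of the Arid genes and 54 of 68 of the chromodomain helicases, but 5 of 12 of the chromobox genes, where 6 others lay around the start codon. GGACT was looked for in the genome within 100 nucleotides of the midpoint of each placed region, on both strands. These windows were not spliced, so around short exons they take in intron letters. GGACT occurred in 18.6% of the set's windows on the strand of the mRNA and in 19.6% on the opposite strand. Over all regions the shares were 19.8% on the mRNA strand and 17.7% on the opposite strand. In these windows the letters were about as frequent in the set as elsewhere. Within the exon part of the regions, GGACT occurred 1.04 times per kilobase on the mRNA strand in the set and 1.17 times over all regions. On the opposite strand these values were 1.21 in the set and 1.04 over all regions. This motif overlaps no other motif searched, since it was the only one.

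Presence of a peak was then compared between the diets for each gene. A gene was tested if at least 2 lists held it and at least 2 lacked it, which left 23 of the 89, and Fisher's exact test was two-sided and adjusted by the Benjamini-Hochberg method over the 2839 genes tested in all. No gene of the set had a peak in all 4 mice of one diet and none of the other. Over all tested genes 0.423% were separated in this way toward HFrD and 0.986% toward ND. The adjusted p was 1 for each tested gene of the set; with 4 mice per diet the smallest unadjusted p possible is 0.0286. In the set 0 genes had an unadjusted p under 0.05, beside 1.41% of the tested genes. Of the 89 genes, 8 were found in a larger number of HFrD than ND mice, 20 in a smaller number and 61 in the same number. Over all 7693 genes these numbers were 1364, 2446 and 3883.

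Of the 23 tested genes of the set, 4 differed by at least 3 mice, Arid3a and Brd8 toward HFrD and Hdac1 and Setd4 toward ND. Over all 2839 tested genes 75 (2.64%) did so toward HFrD and 221 (7.78%) toward ND. Arid3a, which encodes an AT-rich DNA-binding protein, had 2, 1, 2 and 1 peaks in HFrD mice and 2 peaks in ND mouse 1, with none in ND mice 3, 6 and 7. Brd8, a subunit of the TIP60 acetyltransferase complex, had 1 peak in each of HFrD mice 1, 2 and 5 and none in the other mice. Its 3 peaks lay in 3 different exons, 5, 13 and 1 of 22, with fold enrichments of 5.11, 5.06 and 4.13, so no position of Brd8 was shared by 2 mice. With lists of equal length the difference for Brd8 was 0 percentage points of mice and that for Arid3a stayed at 75.

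Toward ND, Hdac1, the catalytic deacetylase of the SIN3 and NuRD complexes, had a peak in HFrD mouse 5 only, against 1, 2, 1 and 1 peaks in ND mice. Its region covers exon 1 of 14 around the start codon (chr4:129542581-129542713), with a fold enrichment of 9.53 in HFrD mouse 5 and 7.21, 8.86, 6.97 and 6.57 in ND mice. Setd4, which encodes a SET-domain methyltransferase, had no peak in HFrD mice and 1 in each of ND mice 1, 6 and 7, in exon 7 of 12 for mice 1 and 7 and in exon 3 for mouse 6. With lists of equal length the difference in the percent of mice with a peak was -50 points for Hdac1 and -25 points for Setd4, against -75 points for each with all peaks. Each of these 4 genes had an unadjusted exact p of 0.143.

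The share of genes and mice with a peak was also taken by role group. For the 4 histone deacetylases it was 37.5% in HFrD mice and 68.8% in ND mice. Over all genes it was 64.5% in HFrD mice and 70.2% in ND mice. Among the deacetylases, Hdac1 was found in 1 HFrD mouse and 4 ND mice. Hdac2 was found in 0 HFrD mice and 1 ND mouse, Hdac4 in 2 mice of each diet, and Hdac5 in 3 HFrD and 4 ND mice. The share was 100% in both diets for the chromodomain helicases. For the 6 bromodomain genes it was 95.8% in HFrD mice and 83.3% in ND mice. That gap was due to Brd8 alone, since the other 5 had a peak in all 8 mice. For the Arid genes the share was 84.4% in HFrD mice and 75.0% in ND mice. Arid3a was found in 4 HFrD mice and 1 ND mouse, Arid2 in 2 HFrD and 3 ND mice, and Arid3b in 1 HFrD mouse only. The histone lysine methyltransferases had 79.2% in HFrD mice and 84.7% in ND mice. These shares carry no test. Dnmt1, the maintenance DNA methyltransferase, lacked a peak in HFrD mouse 1 alone, where the other HFrD mice had 4, 4 and 3 peaks and the ND mice 4, 2, 4 and 4. Kdm3b, a histone H3 lysine 9 demethylase, had no peak in HFrD mice 1 and 7, the mice with the shortest lists, 3 in each of HFrD mice 2 and 5, and 2, 3, 4 and 3 in ND mice.

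Partners of these enzymes that the symbols leave out gave a similar account. Of 113 genes listed from Polycomb, COMPASS, acetyltransferase, deacetylase, sirtuin, remodelling and DNA methylation complexes, 84 had a peak and 43 of them (51.2%) had one in all 8 mice. Of these, 21 were tested and 0 were separated between the diets in either direction. Over all tested genes 0.423% were separated toward HFrD and 0.986% toward ND. Over all 7693 genes, 1364 were found in a larger number of HFrD than ND mice, 2446 in a smaller number and 3883 in the same number. For the partners these numbers were 13, 20 and 51. Differences of at least 3 mice were found for Sin3b and Tbl1x alone. Sin3b, a scaffold of a deacetylase complex, was found in 1 HFrD and 4 ND mice. Tbl1x, a subunit of the NCoR corepressor, was found in 0 HFrD and 3 ND mice. Over all tested genes 7.78% differed this much toward ND and 2.64% toward HFrD. The 12 genes of deacetylase complexes had a peak in 56.2% of cases in HFrD mice and 75.0% in ND mice, and the 4 DNA methylation partners in 68.8% in HFrD mice and 43.8% in ND mice. These were the widest gaps. The other partner lists differed by -6.25 to 6.25 points, beside -5.72 points over all genes. The adjusted p of each tested partner was 1.

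Presence was compared region by region in the same way, since a gene can lose a peak in an exon and keep others. Of the 431 regions, 138 (32.0%) had a peak in all 8 mice, against 24.9% of all regions, and 156 were tested. In the set 0 regions were separated toward HFrD and 2 toward ND, against 0.216% toward HFrD and 0.864% toward ND of the 7410 regions tested in all. Both were lost when the lists were shortened to equal length. At least 3 more HFrD mice had a peak in 3 regions and at least 3 more ND mice in 7, against 2.15% and 6.77% of the tested regions in those directions. Fisher's exact test gave an adjusted p of 1 throughout, and the unadjusted p was under 0.05 for the 2 separated regions alone, against 1.08% of the tested regions.

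The first separated region was the last exon, 39 of 39, of Chd4, in the 3′UTR at chr6:125129820-125130591. It had no peak in HFrD mice and fold enrichments of 4.93, 5.22, 4.45 and 9.05 in ND mice. The last exon of Chd3, the other NuRD helicase, at chr11:69343273-69344478, also in the 3′UTR, had a peak at 3.99 in HFrD mouse 5 and at 4.53, 3.35, 2.49 and 3.23 in ND mice. Both genes had other peaks in all 8 mice.

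The second was exon 25 of 27 of Kdm5b, a histone H3 lysine 4 demethylase, at chr1:134628598-134628752. It had no peak in HFrD mice and fold enrichments of 6.46, 6.23, 4.47 and 4.14 in ND mice. The same mRNA differed the other way in exon 6, at chr1:134595800-134595896, with 6.51, 4.71 and 4.6 in HFrD mice 1, 2 and 5 and no peak in HFrD mouse 7 or in any ND mouse. Exons 5 and 7, on either side, had a peak in all 8 mice. Fold enrichment in exon 7 was 8.91, 5.11, 12.9 and 5.65 in HFrD mice and 11.3, 11.3, 8.06 and 10.7 in ND mice, and the groups overlapped.

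The other regions toward HFrD were in Arid3a and Setd1a. The last exon of Arid3a, 9 of 9, around the stop codon at chr10:79951740-79952486, had values of 9.36, 8.83, 11.8 and 8.43 in HFrD mice and 5.82 in ND mouse 1 only. Exon 11 of 19 of Setd1a, a histone H3 lysine 4 methyltransferase, at chr7:127788197-127788354, had 13.4, 5.57, 7.85 and 10.1 in HFrD mice and 4.79 in ND mouse 1 only. In both regions every HFrD value was above the ND value that was present, but that value came from 1 mouse. Ratios below the calling threshold are absent. Leaving out ND mouse 1 separates these 2 regions toward HFrD by construction, which adds no support. The remaining regions toward ND were in Hdac1 (above), Dnmt3a, Kmt2c and Setd1b. Kmt2c, a histone H3 lysine 4 methyltransferase, had a peak in exon 36 of 59 at 4.33 in HFrD mouse 1 and at 6.77, 5.12, 5.95 and 6.48 in ND mice.

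Fold enrichment, the authors' ratio of immunoprecipitated to background signal, was compared in regions where all 8 mice had a peak. Limma was fitted to log2 fold enrichment, centred on each mouse's median, over all 4360 such regions; 138 of them belonged to 50 genes of the set. At an adjusted p under 0.05 limma called 0 regions higher and 0 lower in HFrD mice, in the set and over all genes, where the share called was 0%. The smallest adjusted p over all regions was 0.105. At an unadjusted p under 0.05, 1 region of the set was higher and 6 were lower in HFrD mice, against 4.61% higher and 5% lower over all regions. In the set 71 regions had a positive and 67 a negative difference, with a median of 0.01 on the log2 scale. The median standard error of a difference in the set was 0.23, and no region of the set reached an absolute difference of 1. Without centring, the median over all regions shifted to -0.09. In that setting 1 region of the set was higher and 11 were lower at the unadjusted threshold. Over all 4360 regions 86 were higher and 326 lower. Values below the peak threshold are absent from the lists, so these ratios are truncated at the low end.

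**Figure D3:**
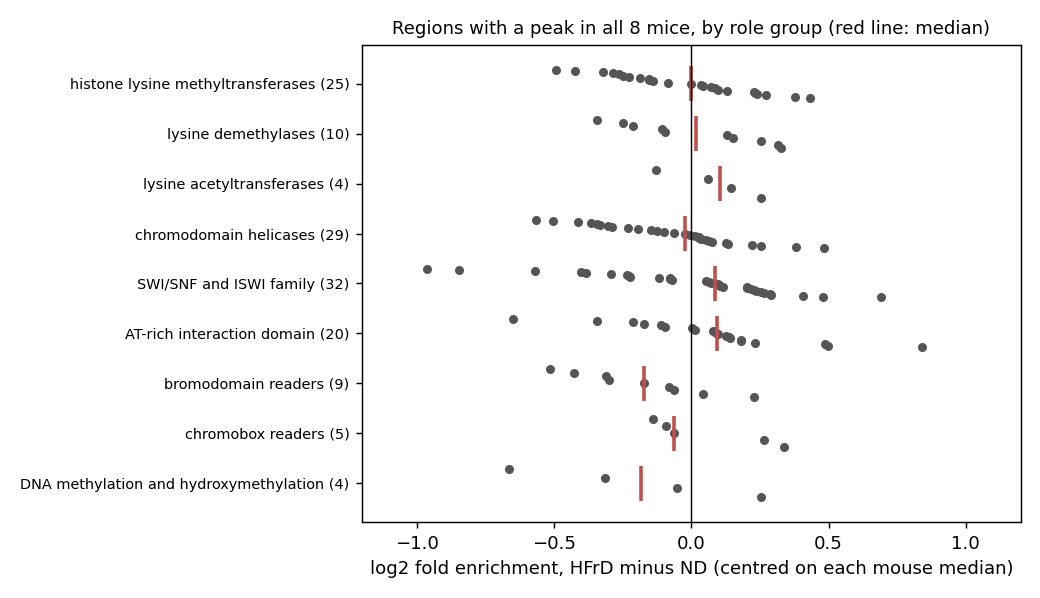
Difference in log2 fold enrichment, HFrD minus ND, for the 138 regions of chromatin genes with a peak in all 8 mice, 1 point per region, by role group with the number of regions in brackets. The points spread on both sides of 0 in every group, between -0.96 in Smarca2 and 0.84 in Arid4a, and none passed the adjusted threshold.

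Among the strongest regions of the role groups, exon 3 of Arid1a, described below, did not overlap between the diets, and the others did. Among all regions of the set, exon 3 of Chd6, a chromodomain helicase, reached the highest fold enrichment, at 30.8 to 61.6 in HFrD mice and 38.6 to 81.9 in ND mice. Exon 16 of Arid4a, shown above by sequence, averaged 47.2 ± 10.8 in HFrD mice and 45.8 ± 10.4 in ND mice (SD, n = 4 each). The last exon of Kat6b averaged 32.8 ± 6.66 in HFrD mice and 29.7 ± 7.83 in ND mice, and that of its paralog Kat6a 31.2 ± 12 in HFrD mice and 30.8 ± 7.57 in ND mice. Exon 27 of Kdm5a averaged 32.9 ± 8.66 in HFrD mice and 37.1 ± 7.32 in ND mice, and exon 2 of Kdm1a, the LSD1 demethylase, 15.2 ± 2.94 in HFrD mice and 14.6 ± 1.40 in ND mice. For the writers, exon 3 of Kmt2b averaged 24.2 ± 4.93 in HFrD mice and 31.6 ± 9.65 in ND mice, and exon 1 of Setd2, the histone H3 lysine 36 methyltransferase, 14.9 ± 1.11 in HFrD mice and 13.1 ± 4.78 in ND mice. The groups overlapped in each region of this paragraph other than that of Arid1a.

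The readers and remodellers likewise overlapped between the diets. Exon 1 of Cbx1, which encodes the heterochromatin protein HP1 beta, averaged 16 ± 4.10 in HFrD mice and 14.2 ± 3.93 in ND mice. Exon 7 of Brd7, a subunit of the PBAF complex, averaged 10.9 ± 2.49 in HFrD mice and 15.9 ± 5.09 in ND mice. Tet2, the paralog of Tet3, averaged 9.92 ± 1.88 in its last exon in HFrD mice and 8.76 ± 0.709 in ND mice, and exon 10 of Smarca4 37.7 ± 10.5 in HFrD mice and 42.0 ± 10.7 in ND mice. Exon 1 of Chd3 averaged 37.0 ± 7.90 in HFrD mice and 47.8 ± 3.74 in ND mice, with a log2 difference of -0.30 ± 0.19 (SE; limma adjusted p = 0.64).

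The lowest unadjusted p in the set belonged to Smarca2. Fold enrichment of its exon 4 of 33, at chr19:26630670-26631131, was 6.46, 9.48, 9.55 and 7.82 in HFrD mice, against 15.4, 22.4, 15.97 and 15.4 in ND mice. All HFrD values lay below all ND values, and ND mouse 3 stood above the rest of its group. The log2 difference was -0.96 ± 0.23 (SE; limma adjusted p = 0.223). The next exon, 5, at chr19:26640388-26640649, had 4.46, 9.75, 7.66 and 7.89 in HFrD mice, against 15.7, 10.1, 18.6 and 12.04 in ND mice. Again the groups did not overlap, with a log2 difference of -0.85 ± 0.28 (SE; limma adjusted p = 0.377).

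The other Smarca2 exons had smaller differences, in both directions. It had 12 regions in all 8 mice, 7 with a positive and 5 with a negative difference. Exon 9, its strongest, averaged 41.1 ± 13.4 in HFrD mice and 36.6 ± 8.82 in ND mice, with a log2 difference of 0.22 ± 0.23 (SE; limma adjusted p = 0.808). Exon 31 lay farthest the other way, with a log2 difference of 0.48 ± 0.25 (SE; limma adjusted p = 0.559). Whether these exons differed from exon 4 in their response was not tested.

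**Figure D4:**
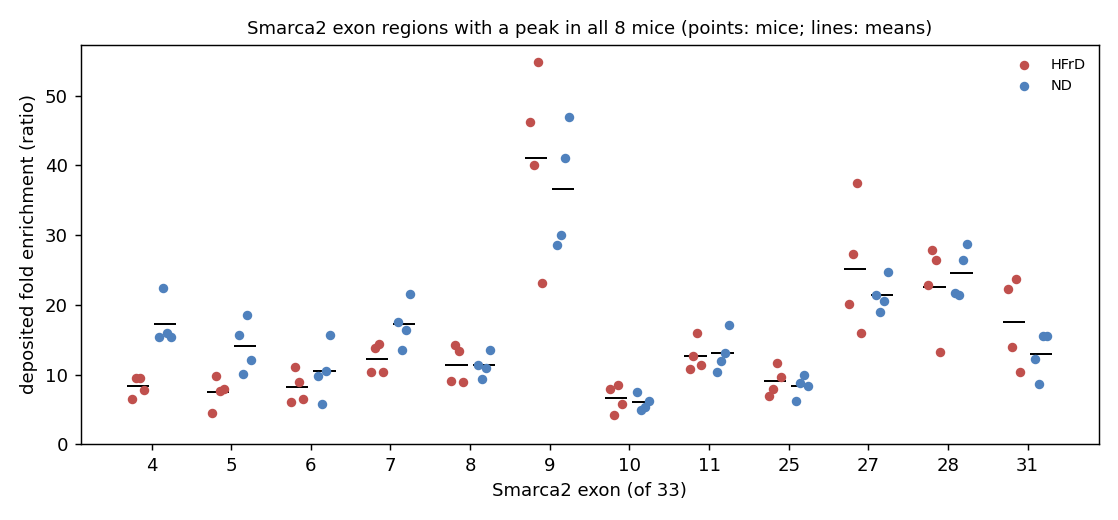
Deposited fold enrichment of the 12 Smarca2 exon regions with a peak in all 8 mice, by exon number, with 1 point per mouse and lines at the means of the 4 HFrD and 4 ND mice. The HFrD points lie below all ND points in exons 4 and 5, and the groups overlap in exon 9, where both are highest.

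Arid4a held the lowest unadjusted p in the other direction. Its exon 17 of 24, at chr12:71069834-71070031, had 19.3, 18.1, 21.6 and 20.6 in HFrD mice, against 8.19, 11.0, 14.6 and 14.6 in ND mice. All HFrD values lay above all ND values, with a log2 difference of 0.84 ± 0.22 (SE; limma adjusted p = 0.252). In the set 1 region lay wholly above the other diet in HFrD mice on the centred scale and 5 wholly below, against 2.59% above and 2.64% below over all regions. All 6 regions of Arid4a present in every mouse, exon 17 among them, had positive differences, between 0.09 and 0.84. Exon 16, directly before exon 17, had a log2 difference of 0.14 ± 0.21 (SE, limma adjusted p = 0.877). Regions of an mRNA come from the same mice and are not independent. A single sign also occurred in Setd2 (3 positive) and in Kmt2d, Chd3 and Smarcc2 (3 negative each). Smarcc1 had 6 positive and 2 negative, and Smarca4 4 positive and 3 negative. Such genes were not counted over the series.

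Chd7 is the chromodomain helicase whose human form is mutated in CHARGE syndrome. Its exon 3 of 38, at chr4:8785342-8785763, had 25.6, 25.8, 26.1 and 24.9 in HFrD mice, against 41.6, 36.5, 41.3 and 42.0 in ND mice. The groups did not overlap, and the log2 difference was -0.57 ± 0.18 (SE; limma adjusted p = 0.334). The other 3 regions of Chd7 in all 8 mice also had negative differences, between -0.50 and -0.06. As for Arid4a, these regions come from the same mice, and genes with a single sign were not counted over the series.

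Tet3 gave the remaining region among the lowest p-values toward ND. Its exon 3 of 11, at chr6:83402667-83404824, had 7.93, 10.8, 7.80 and 6.91 in HFrD mice, against 13.0, 12.5, 16.6 and 13.8 in ND mice. The groups did not overlap, and the log2 difference was -0.67 ± 0.21 (SE; limma adjusted p = 0.356). Its last exon, shown above by sequence, averaged 11.2 ± 0.935 in HFrD mice and 12.3 ± 0.360 in ND mice, with a log2 difference of -0.05 ± 0.19 (SE; limma adjusted p = 0.96).

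The other regions with an unadjusted p under 0.05 were exon 3 of Arid1a, a subunit of the SWI/SNF complex that binds DNA, and exon 8 of Brd7. The Arid1a region had 21.1, 17.7, 28.4 and 26.1 in HFrD mice, against 36.7, 32.1, 49.7 and 36.7 in ND mice, without overlap (log2 difference -0.65 ± 0.22 SE; limma adjusted p = 0.378). The Brd7 region had 11.0, 6.66, 7.28 and 7.02 in HFrD mice, against 13.3, 8.69, 12.3 and 14.03 in ND mice, with overlap (log2 difference -0.51 ± 0.23 SE; limma adjusted p = 0.487).

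Toward HFrD, 3 more regions completed the 4 of lowest p, and in all 3 the groups overlapped. Exon 9 of 11 of Smarce1, a SWI/SNF subunit with an HMG box, had 27.8, 13.5, 12.6 and 5.58 in HFrD mice, against 8.40, 6.50, 9.83 and 9.27 in ND mice (log2 difference 0.69 ± 0.33 SE; limma adjusted p = 0.525). The spread among HFrD mice was wide, with HFrD mouse 1 the highest and HFrD mouse 7 the lowest of all 8. The log2 difference was 0.34 without HFrD mouse 1 and 1.03 without HFrD mouse 7. Exon 17 of 23 of Chd1l, a remodeller recruited to damaged DNA, had a log2 difference of 0.48 ± 0.23 (SE; limma adjusted p = 0.528), and exon 17 of 24 of Arid4b, the paralog of Arid4a, one of 0.50 ± 0.24 (SE; limma adjusted p = 0.536).

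**Figure D5:**
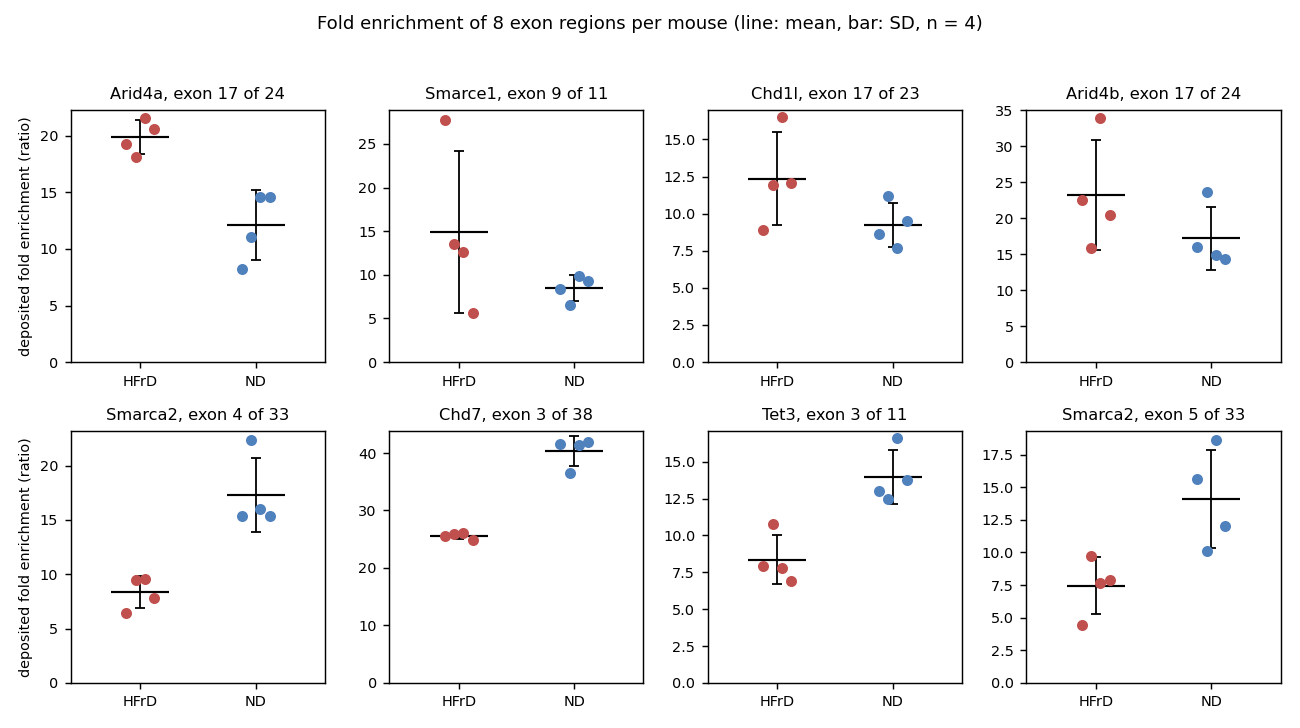
Deposited fold enrichment per mouse of the 4 regions with the lowest p in each direction (top row, positive difference; bottom row, negative difference), with mean and SD of 4 mice per diet. The diets do not overlap in Arid4a exon 17, Smarca2 exons 4 and 5, Chd7 exon 3 and Tet3 exon 3, and overlap in Smarce1, Chd1l and Arid4b; none passed the adjusted threshold.

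The mice of a diet shared most of their methylated chromatin genes. The overlap of a pair of mice, as the share of genes found in either that were found in both, averaged 77.8% among HFrD mice (73.7% to 84.0%) and 85.9% among ND mice (83.5% to 93.7%). Between an HFrD and an ND mouse it averaged 81.3% (74.4% to 89.0%), which lies between the values within the diets. The 2 shortest lists were of HFrD mice, and the part of list length in these shares was not tested.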

How the data were processed

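Liver RNA of 4 HFrD and 4 ND mice was immunoprecipitated with an m6A antibody and sequenced with its input as 150 bp paired-end reads (16 libraries). The submitters' notes name cutadapt 1.9.3 for trimming, HISAT2 2.0.4 for alignment and mm10 as the genome. The authors called peaks per mouse with MACS, whose version is not given in the sources used here, and kept those overlapping mRNA exons. Each deposited peak has a fold enrichment, which is a ratio to background signal, a score, which is -10 times log10 of a p-value, and a false discovery rate in percent. Only the files of peaks per mouse were used, and input and immunoprecipitated reads were not analysed here. Peaks were assigned to mice by list name, and diets were taken from the labels.

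Starts are counted from 1. Peaks overlapping by at least 1 bp were merged into regions across mice. Presence was tested by Fisher's exact test (SciPy 1.17.1), and log2 of the highest fold enrichment per mouse and region, centred on the mouse median, by limma 3.58.1 in R 4.3.3 with a mean-variance trend, both adjusted by Benjamini-Hochberg over all genes or regions of the series tested. No pseudocount was needed. On simulated data for the fold enrichment comparison (4360 regions), limma recovered 64 of 100 changes of 1 and 97 of 100 changes of 2 on the log2 scale, and called 7 other regions. Exons and segments came from RefSeq and GENCODE models on GRCm38, and the segment around a codon reached 200 nucleotides to each side. Genes named were those differing by at least 3 mice, separated regions, the 4 regions of lowest p per direction, the 2 strongest genes per role group by rank of fold enrichment, and the 5 with most peaks. The Dnmt1, Kdm3b, Sin3b and Tbl1x values and the regions of Brd7 exon 8, Kdm5b exons 6 and 7, Smarca2 exon 31, Arid3a, Setd1a, Chd3 exon 40 and Kmt2c, chosen after their values were seen, fall outside that rule. The sequences shown use GGACT alone, so the strongest region of a group without it was passed over. The values and sequences of 2 genes of the set are not reported here. The gene set, role groups and partner lists were chosen with earlier results of these data known. Alternatives were lists shortened to 8055 peaks by score, a minimum fold enrichment of 3, coverage of at least 50% of a region, other centring and variance settings, leaving out each mouse, and the mouse numbers common to both diets as a block.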

Additional observations from a re-analysis of the deposited data

Results flagged for a closer look

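In 62 groups of 4 mice examined for a value far from the rest by Dixon's ratio, 2 stood out, and chance gives about 1 in 20. In exon 4 of Smarca2, ND mouse 3 had a fold enrichment of 22.39, where the other ND mice had 15.37 to 15.97; leaving out single mice moved the log2 difference between -1.05 and -0.81. In exon 3 of Chd7, ND mouse 3 had 36.48, where the other ND mice had 41.31 to 41.98; leaving out single mice moved the log2 difference between -0.61 and -0.53. The second value lies toward the HFrD mice and the first away from them.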

How the results depend on the processing

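Limma called 0 regions of the set in either direction under every alternative, and the 4 regions of lowest p in each direction kept their sign under all of them, with adjusted p between 0.161 and 0.807. The log2 difference of Smarce1 ranged from 0.34 without HFrD mouse 1 to 1.03 without HFrD mouse 7. The difference in peaks per gene, -0.251 with all peaks, was 0.00656 with equal list lengths, and between -0.37 and -0.17 without single mice. The share of genes with a peak differed by -1.97 to -6.46 points without single mice, against -3.93 with all. Genes separated between the diets numbered 0 with all mice and 0 to 1 in each direction without single mice: Brd8 toward HFrD without HFrD mouse 7, Arid3a toward HFrD without ND mouse 1, Hdac1 toward ND without HFrD mouse 5, and Setd4 toward ND without ND mouse 3. Regions separated toward ND numbered 2 with all mice, 0 with equal list lengths and 2 to 4 without single mice, with 4 without HFrD mouse 1 (Kmt2c and Setd1b added) and 4 without HFrD mouse 5 (Chd3 and Hdac1 added). Toward HFrD they numbered 0 with all mice and 0 to 2 without single mice, with 1 without HFrD mouse 7 (Kdm5b exon 6) and 2 without ND mouse 1 (Arid3a and Setd1a), and 1 (Arid3a) where peaks had to cover 50% of a region. A gene or region that misses separation by 1 mouse becomes separated by construction once that mouse is left out. The causes were not tested beyond the construction of each alternative. Mouse numbers 1 and 7 occur in both diets, but nothing says that they pair animals, and deviations of same-numbered mice correlated at 0.04 and -0.07. In the 4 mice with the number as a block, 5 genes and 21 regions were separated toward ND, the share of genes differed by -10.1 points, and limma called 0 regions. Separation there needs only a peak in both mice of a diet and in neither of the other. HFrD mice 1 and 7 had the shortest lists and ND mouse 7 the longest. The same counts were not taken over all genes and regions, so these have no background beside them. Depth is unknown, most peaks carry a high false discovery rate, and ratios below the calling threshold are absent; how these limit detection was not tested.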

Other observations

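Of the genes of the same enzyme families that the files list under older symbols, 5 fall outside the symbol rule, and 4 of these had a peak in all 8 mice. Whsc1l1, the older symbol of Nsd3, a histone H3 lysine 36 methyltransferase, had 3, 4, 4 and 4 peaks in HFrD mice and 4 in each ND mouse. Whsc1, the older symbol of Nsd2, its paralog, had 1, 2, 3 and 1 peaks in HFrD mice and 2 in each ND mouse. Csrp2bp, now Kat14, a subunit of the ATAC acetyltransferase complex, had 3 peaks in every mouse. Suv420h1, now Kmt5b, a histone H4 lysine 20 methyltransferase, had 1, 2, 2 and 2 peaks in HFrD mice and 1, 2, 2 and 2 in ND mice, while its paralog Suv420h2, now Kmt5c, had 1 peak in ND mouse 6 only. None of these differed in presence by more than 1 mouse.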
